A study of Danio rerio with 4 samples.

Results

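Before most vertebrate transcripts leave the nucleus, the spliceosome removes their introns. It is built from small nuclear ribonucleoproteins (snRNPs), most of them an RNA with a ring of Sm proteins and partner proteins of its own, and its assembly at each exon is steered by SR proteins, which mostly promote exon use, and by heterogeneous nuclear ribonucleoproteins (hnRNPs), which often oppose them. Several of these factors, among them SF3B1, SRSF2 and U2AF1, are recurrently mutated in human myelodysplastic syndromes. The genes described here are the 72 of 30838 table rows whose symbol starts with sf3a, sf3b, srsf, prpf, snrp or hnrnp followed by a letter or digit. They comprise 12 snrp, 9 sf3, 13 prpf, 17 srsf and 21 hnrnp genes. The rule used symbols only and no expression value.

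The libraries came from hematopoietic stem and progenitor cells (HSPCs) of AB strain zebrafish larvae at 4 days post fertilization, in 2 groups with no further treatment: smu07 mutants (2 libraries) and siblings (2 libraries). All larvae carried a cd41:eGFP reporter, and the cells were gated on low eGFP signal, about 500 for each library, after which their cDNA was amplified. The series title names slc20a1b, a phosphate transporter gene, which read 49.3 and 53.8 TPM in the mutants against 39.3 and 42.4 TPM in the siblings (limma adjusted p = 0.0827). The labels do not state the lesion of smu07, so this transcript level checks nothing, nor the genotypes among the siblings, which the design text calls wild type. They do not say whether larvae were pooled or whether the libraries of a group came from separate clutches or sorts. The p-values therefore measure only the spread between these libraries, which may be technical. Values are TPM, a read share corrected for gene length and set to a common library total. In bulk sorted cells, fewer cells of a type and less RNA per cell cannot be told apart.

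Whole reads recovered from ratios between libraries came to 28274715 and 29948886 in the mutant libraries and to 25102933 and 26598640 in the sibling libraries. Genes above 0 TPM numbered 23881 and 23978 in the mutant libraries against 19528 and 19811 in the sibling libraries. Progenitor transcripts were present, but the summed progenitor markers (11 of 11 listed genes, 1 called higher and 5 lower) reached 353 and 366 TPM in the mutants against 525 and 552 TPM in the siblings. Of them, myb stood at 8.81 and 14.3 TPM in the mutants against 11.9 and 10.9 TPM in the siblings, and the gate transcript itga2b at 23.5 and 19.3 TPM against 50.8 and 66.9 TPM. The progenitor marker called higher was runx1, at 15.7 and 14.6 TPM in the mutants against 8.10 and 7.10 TPM in the siblings. Marker sums of other cell types differed between the groups. Summed macrophage markers (9 of 9 listed genes had a row) reached 827 and 803 TPM in the mutants against 356 and 297 TPM in the siblings. Of them, c1qa and c1qc were at 0 in all libraries, and c1qb and mpeg1.1 at 0.045 TPM or less. Most of the mutant sum was ctsl.1, at 558 and 564 TPM in the mutants against 189 and 151 TPM in the siblings. Of the 5 tested markers 4 were called higher. The other, cd74a, was uncalled and lower, at 21.7 and 22.8 TPM against 56.8 and 29.4 TPM. Summed keratinocyte markers (9 of 9, with epcam at 0 throughout and krt91 at 0 in the siblings) reached 269 and 173 TPM in the mutants against 43.4 and 34.9 TPM in the siblings. Summed erythroid markers (10 of 11, with alas2 and gata1a at 0.017 TPM or less in all libraries) reached 269 and 385 TPM against 1202 and 704 TPM. Of the 8 tested, 5 were called lower and 0 higher. Within that sum hbbe1.1 had 76.9 and 128 TPM in the mutants against 768 and 231 TPM in the siblings. In the same order, 20 cell division genes (cdk1 at 0 throughout) summed to 2302 and 2235 TPM against 3099 and 3039 TPM. Neutrophil markers (5 of 6) summed to 607 and 712 TPM in the mutants against 438 and 391 TPM in the siblings. Of the 4 tested, mpx and mmp9 were called higher. The marker srgn was called lower, at 141 and 175 TPM in the mutants against 244 and 261 TPM in the siblings. In no library did lyz exceed 0.866 TPM. Lymphoid markers (8 of 8, with lck at 0 and rag1 at 0.072 TPM or less throughout) summed to 1228 and 1205 TPM against 1702 and 1694 TPM. Most of that sum was ccr9a and cxcr4b, which moved in opposite directions. The first had 810 and 777 TPM in the mutants against 731 and 569 TPM in the siblings, uncalled. The second had 335 and 340 TPM against 856 and 1000 TPM, called lower. Thrombocyte markers (10 of 10) summed to 340 and 311 TPM in the mutants against 435 and 470 TPM in the siblings. Of them 5 were called lower, among them itga2b, which is also in the progenitor sum. The 1 called higher, thbs1b, had 77.8 and 63.2 TPM in the mutants against 38.0 and 35.6 TPM in the siblings. The part of these shifts in the results below was not tested.

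Most splicing factor and hnRNP genes were not called as different between mutant and sibling libraries. Of the 67 members with a mean of at least 1 TPM, 5 were called higher and 13 lower in the mutants, at a Benjamini-Hochberg adjusted p under 0.05 from limma on log2(TPM + 1) over 12073 genes. All 5 rises were in the srsf and hnrnp genes (hnrnpa0a, srsf5b, hnrnpa1a, hnrnpr and srsf5a), whereas every prefix held at least 1 fall. Among all genes tested 28.5% were called, 9.91% higher and 18.6% lower, against 26.9% of the members, 7.46% higher and 19.4% lower. In this fit the members were thus called about as often as any gene, but not in every alternative. Among genes averaging at least 5 TPM the members' share was smaller, 20 of 63 against 2973 of 7337. It was also smaller without limma's mean-variance trend, 7 of 67 against 2570 of 12073. Where low genes were kept in the test, the members' share was larger, 9 of 72 against 2445 of 26105. Of the 18 called members 16 moved by less than 2-fold and only hnrnpa0a (higher) and srsf7b (lower) by more. Over all genes tested, 641 of the 1196 called higher and 530 of the 2247 called lower moved by at least 2-fold.

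The balance was towards lower values. The median log2 difference of the members was -0.21, with 50 of 67 below 0, against -0.14 and 7242 of 12073 for all genes tested. The groups' libraries did not overlap for 50 of the 67 members, 12 higher and 38 lower in the mutants, whereas 70.0% of all genes tested did not overlap (26.0% higher and 44.0% lower). Among the 63 members with a mean of at least 5 TPM the median was -0.20, against -0.23 for all 7337 genes of that level, of which 10.6% were called higher and 29.9% lower. Of those 63 members 9.52% were called higher and 22.2% lower. The direction depended on the scaling of the libraries. The members' median was -0.11 under median-of-ratios scaling, with 41 of 67 below 0, and 0.0025 under quantile normalization, with 32 of 67. For all genes tested the median was -0.05 under each of these scalings. The members' calls split into 6 higher and 9 lower and into 8 higher and 5 lower. Over all genes those scalings gave 1397 higher and 1656 lower, and 1329 higher and 1390 lower, in place of 1196 and 2247. No call survived the removal of mutant replicate 1 or of mutant replicate 2, although none of the 18 called members changed sign. The members' median was then -0.15 and -0.24, against -0.13 and -0.15 for all genes tested. With no filter on low values 9 of the 18 calls were kept: hnrnpa0a, hnrnpa1a, hnrnpk, hnrnpr, prpf19, sf3b4, srsf11, srsf5b and srsf6b. Without the mean-variance trend 6 were kept: hnrnpa0a, hnrnpa1a, prpf4bb, srsf5b, srsf6b and srsf7b.

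**Figure D1:**
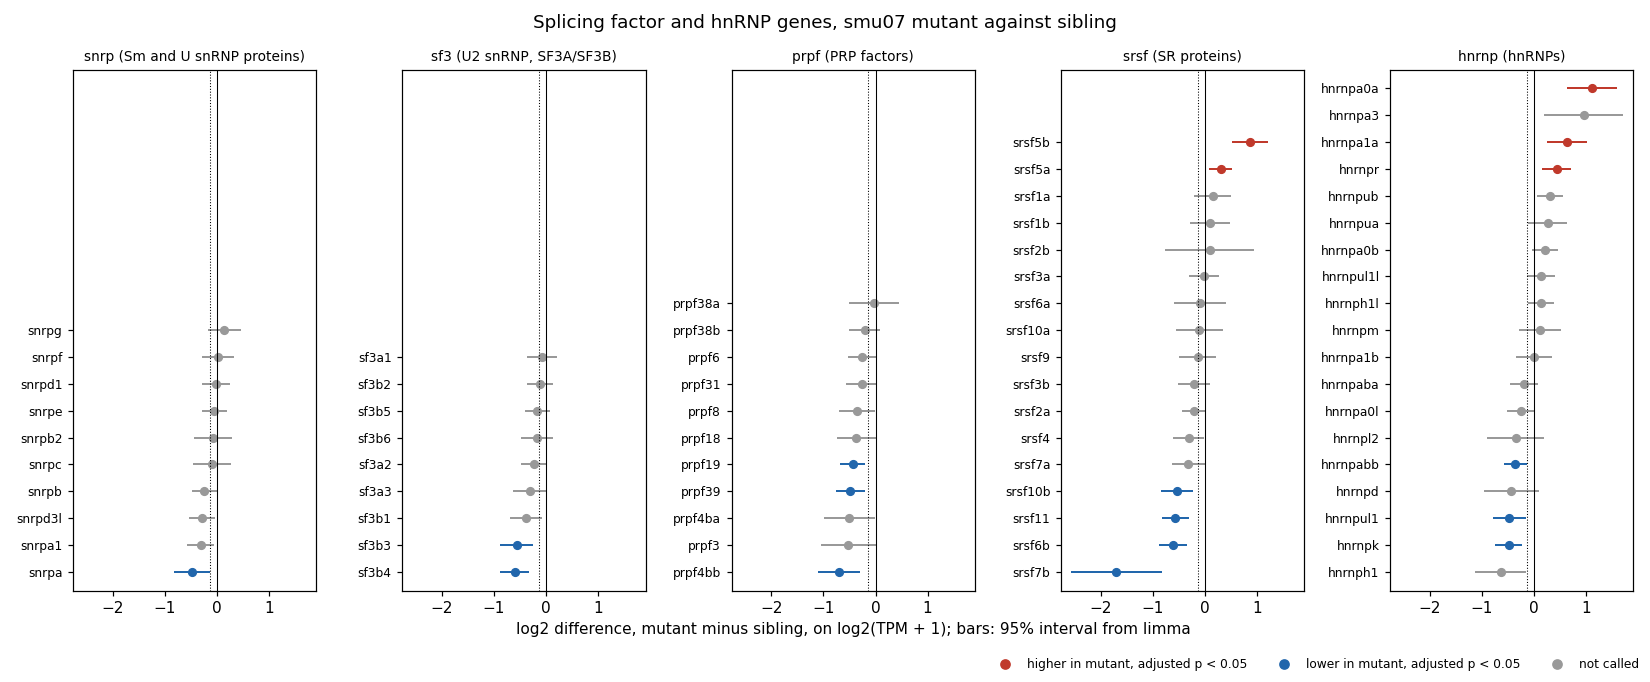
Log2 difference (mutant minus sibling, on log2(TPM + 1)) of 66 of the 67 tested members, 1 panel for each symbol prefix, with the 95% interval from limma (n = 2 libraries per group); the dotted line is the median of all genes tested, -0.14. Red and blue points mark the 5 members called higher and the 13 called lower, and with the deposited scaling all sf3 and prpf points lie left of 0 (under quantile normalization 5 of 9 tested sf3 and 10 of 12 tested prpf genes do).

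The snrp genes encode the Sm ring (snrpb, snrpd1, snrpd2, snrpd3, snrpe, snrpf and snrpg) and proteins specific to the U1 snRNP, which recognizes the 5′ splice site, or to the U2 snRNP, which recognizes the branch point. Ring genes were among the most abundant members. The SmB gene snrpb had 572 and 528 TPM in the mutants against 682 and 617 TPM in the siblings, snrpg had 568 and 722 TPM against 585 and 573 TPM, and snrpe had 477 and 541 TPM against 525 and 524 TPM. Mutant and sibling libraries overlapped for snrpg and snrpe, with log2 differences of 0.14 (SE 0.12) and -0.05 (SE 0.09), while both mutant libraries lay below both siblings for snrpb at -0.24 (SE 0.09, limma adjusted p = 0.0958). Further ring genes read 367 and 411 TPM in the mutants against 414 and 373 TPM in the siblings for snrpd1, and 80.5 and 93.4 TPM against 87.9 and 83.1 TPM for snrpf. The D3-like row snrpd3l had 169 and 183 TPM in the mutants against 219.7 and 209 TPM in the siblings, and missed the test (-0.28, SE 0.09, limma adjusted p = 0.0644). The 95% intervals of snrpd1, snrpe and snrpf lay between -0.27 and 0.30.

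Among the snRNP-specific proteins snrpa, which encodes the A protein of the U1 snRNP, fell. It had 131 and 148 TPM in the mutants against 216 and 175 TPM in the siblings, and the groups did not overlap (log2 difference -0.48, SE 0.13, limma adjusted p = 0.0421). That call also ended without sibling replicate 1, where the difference was -0.33, and under both alternative scalings. The second U1-specific gene, snrpc, had overlapping libraries at 146 and 171 TPM in the mutants against 188 and 150.1 TPM in the siblings. On the U2 side, snrpa1 read 132 and 146 TPM in the mutants against 176 and 167 TPM in the siblings (-0.31, SE 0.10, limma adjusted p = 0.0621), whereas snrpb2 overlapped. In all, 1 of 10 tested snrp genes was called, as lower, against 18.6% of all genes tested. The summed TPM of the snrp genes, 2700.4 and 3019 in the mutants, overlapped the 3162 and 2944 in the siblings. Their median log2 difference was -0.08, and it was 0.02 under median-of-ratios scaling, 0.11 under quantile normalization and 0.03 without mutant replicate 1.

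The SF3A and SF3B complexes of the U2 snRNP clamp the branch point of the intron. As deposited all 9 sf3 genes had negative log2 differences, against 8 of 9 under median-of-ratios scaling and 5 of 9 under quantile normalization. Over all genes tested 7242 of 12073 were below 0 as deposited. The sf3 medians were -0.23 as deposited and -0.13 and -0.04 under those scalings. With the deposited scaling 7 of the 9 were lower in both mutant libraries than in both siblings, against 44.0% of all genes tested. The calls fell on sf3b4 and sf3b3, or 22.2% of the 9, against 18.6% of all genes tested called lower. At a mean of at least 5 TPM 3 of 9 were called lower, against 29.9% of all genes of that level. The RNA-binding subunit gene sf3b4 had 159 and 153 TPM in the mutants against 257 and 219.7 TPM in the siblings (log2 difference -0.61, SE 0.11, limma adjusted p = 0.0135), and sf3b3 had 42.5 and 38.7 TPM against 57.3 and 63.9 TPM (-0.57, SE 0.12, limma adjusted p = 0.0215). Neither gene's groups overlapped. The call of sf3b3 ended under quantile normalization, with no filter on low values and without the mean-variance trend, and that of sf3b4 without the trend.

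The branch site contact sf3b1, mutated in human myelodysplasia, stood at 41.0 and 43.0 TPM in the mutants against 58.9 and 51.9 TPM in the siblings. Its difference of -0.39 (SE 0.12, 95% interval -0.68 to -0.10) missed the threshold narrowly (limma adjusted p = 0.0564). It passed when only genes of at least 5 TPM were tested (limma adjusted p = 0.0432) and without sibling replicate 2 (0.0230), and not under the other 11 alternatives. A fit with 1 library left out takes its residual spread from the remaining pair alone and assumes that the lone library varies like it. The mutant pair correlated at 0.992 across the tested genes and the sibling pair at 0.973. The most abundant sf3 genes were sf3a2, sf3b4 and sf3b5. Of these, sf3a2 had 203 and 216 TPM in the mutants against 258 and 235 TPM in the siblings (-0.23, SE 0.09, limma adjusted p = 0.114), and sf3b5 had 153 and 163 TPM against 179 and 177 TPM (-0.17, SE 0.09). The smallest difference was that of sf3a1, -0.09 (SE 0.11), whose libraries overlapped.

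The prpf genes are named after yeast pre-mRNA processing factors and act at several steps, from U1 binding to the catalytic centre. As deposited all 12 tested members were below 0, against 11 under median-of-ratios scaling or voom and 10 under quantile normalization. Over all genes tested 7242 of 12073 were below 0 as deposited. The prpf median was -0.36 as deposited and -0.27 and -0.17 under the scalings. With the deposited scaling 11 of the 12 were lower in both mutant libraries than in both siblings, against 44.0% of all genes tested. Calls were made for prpf4bb, prpf39 and prpf19, or 25% of the 12, against 18.6% of all genes tested called lower. At a mean of at least 5 TPM 3 of 11 were called lower, against 29.9% of all genes of that level. The prpf19 gene encodes the ubiquitin ligase at the core of the complex that activates the spliceosome, and had 178 and 169 TPM in the mutants against 242 and 227 TPM in the siblings (-0.43, SE 0.09, limma adjusted p = 0.0196). The U1-associated factor gene prpf39 had 132 and 121 TPM against 167 and 188 TPM (-0.48, SE 0.11, limma adjusted p = 0.0233). The kinase gene prpf4bb had 9.35 and 10.03 TPM in the mutants against 17.6 and 14.996 TPM in the siblings (-0.69, SE 0.16, limma adjusted p = 0.0252). None of these groups overlapped, but prpf19 lost its call under median-of-ratios scaling and all 3 lost it under quantile normalization.

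The scaffold of the catalytic centre, prpf8, was not called. It had 17.9 and 17.0 TPM in the mutants against 23.6 and 21.9 TPM in the siblings, with no overlap (-0.36, SE 0.13, limma adjusted p = 0.0892). Of the U4/U6 and tri-snRNP genes, prpf3 had the largest difference among uncalled prpf genes, at 2.70 and 3.52 TPM in the mutants against 5.33 and 4.44 TPM in the siblings (-0.52, SE 0.21, limma adjusted p = 0.111). Further uncalled members, prpf6, prpf18, prpf31, prpf38a, prpf38b and prpf4ba, ranged from -0.50 to -0.03.

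SR proteins carry RNA recognition motifs and a domain rich in arginine and serine, and bind exonic enhancers. Of the 17 srsf genes, all of which passed the filter, 2 rose, 4 fell and 11 were not called. The shares were 11.8% higher and 23.5% lower, against 9.91% and 18.6% of all genes tested. At a mean of at least 5 TPM 2 of 16 were called higher and 3 lower, against 10.6% and 29.9% of all genes of that level. The rises were the co-orthologs srsf5a and srsf5b. The srsf5a gene had 293 and 291 TPM in the mutants against 234 and 239 TPM in the siblings (log2 difference 0.30, SE 0.08, limma adjusted p = 0.0382), and srsf5b had 22.7 and 23.9 TPM against 12.8 and 11.9 TPM (0.87, SE 0.14, limma adjusted p = 0.0106). Both were higher in both mutant libraries, and both calls held under median-of-ratios scaling, quantile normalization and voom. The smaller rise, of srsf5a, lost its call without sibling replicate 1 or sibling replicate 2, with no filter on low values and without the trend, where its limma adjusted p lay between 0.0560 and 0.152.

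The falls were srsf6b, srsf11, srsf10b and srsf7b. The gene srsf6b had 60.4 and 60.6 TPM in the mutants against 94.2 and 91.7 TPM in the siblings (-0.61, SE 0.10, limma adjusted p = 0.0110). The abundant SR-related gene srsf11 had 201 TPM in both mutants and 319 and 279 TPM in the siblings (-0.56, SE 0.10, limma adjusted p = 0.0131). These 2 genes kept their calls under both alternative scalings, but srsf11 lost it without the mean-variance trend. The gene srsf10b, whose human counterpart acts as a repressor when dephosphorylated, had 105 and 88.6 TPM in the mutants against 140.1 and 141 TPM in the siblings (-0.53, SE 0.12, limma adjusted p = 0.0221), and lost its call under quantile normalization. The largest fall in size was that of the weakly expressed srsf7b, at 0.738 and 0.902 TPM in the mutants against 3.19 and 7.27 TPM in the siblings (-1.70, SE 0.35, limma adjusted p = 0.0193). It rested on 24 and 31 recovered reads in the mutants and 88 and 210 in the siblings, which also differed between themselves, and leaving out 1 library moved it between -2.19 and -1.21.

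The most abundant srsf gene was srsf2a, at 333 and 362 TPM in the mutants against 413 and 394 TPM in the siblings. Its groups did not overlap, but the difference of -0.22 (SE 0.09, limma adjusted p = 0.109) did not pass, and it was 0.0025 under quantile normalization. The SRSF1 and SRSF3 co-orthologs had differences between -0.20 and 0.15 and none was called. Of them, srsf3a read 49.0 and 47.1 TPM in the mutants against 50.6 and 47.0 TPM in the siblings (-0.02, 95% interval -0.29 to 0.25), while srsf1a read 23.2 and 26.8 TPM against 22.3 and 22.5 TPM (0.15, SE 0.14). The gene srsf7a, far above its partner srsf7b in level, read 27.3 and 25.3 TPM in the mutants against 33.3 and 32.5 TPM in the siblings (-0.31, SE 0.12, limma adjusted p = 0.101). The median of all srsf genes was -0.14, and it was 0.03 under quantile normalization.

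**Figure D2:**
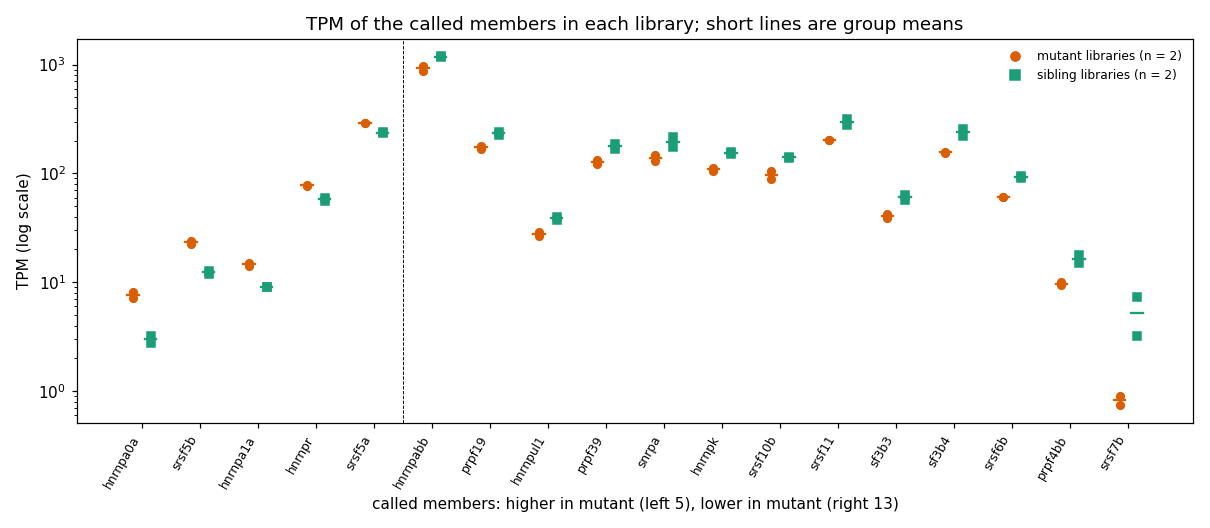
TPM on a log axis of the 18 called members in each mutant (circles) and sibling (squares) library, with short lines at the group means (n = 2 each). The 5 members left of the dashed line were higher and the 13 to its right lower in both mutant libraries, from hnrnpabb near the top of the scale to srsf7b, whose sibling libraries read 3.19 and 7.27 TPM.

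The hnRNP genes package new transcripts and include both splicing repressors and RNA transport and stability factors. Of 19 tested, 3 rose (hnrnpa0a, hnrnpa1a and hnrnpr), 3 fell (hnrnpk, hnrnpul1 and hnrnpabb) and 13 were not called. The shares were 15.8% higher and 15.8% lower, against 9.91% and 18.6% of all genes tested. Of the 19 hnrnp genes 9 were below 0, with a median of 0.11. That median was 0.20 under median-of-ratios scaling and 0.27 under quantile normalization, and -0.0052 with no filter on low values. The calls split into 4 higher and 1 lower under median-of-ratios scaling and into 6 higher and 1 lower under quantile normalization. The RNA-binding protein gene hnrnpa0a had 7.14 and 8.10 TPM in the mutants against 3.23 and 2.75 TPM in the siblings. Its log2 difference of 1.11 (SE 0.19, limma adjusted p = 0.0123) was the largest rise among the called members. It is the minor copy of its pair: hnrnpa0b, uncalled in this fit, had 207 and 225 TPM in the mutants against 185 and 189 TPM in the siblings. The gene hnrnpa1a, an ortholog of the SR antagonist HNRNPA1, had 14.2 and 15.01 TPM in the mutants against 9.01 and 9.12 TPM in the siblings (0.63, SE 0.15, limma adjusted p = 0.0266). The gene hnrnpr had 77.3 and 78.9 TPM in the mutants against 55.7 and 59.8 TPM in the siblings (0.43, SE 0.10, limma adjusted p = 0.0299). The 3 genes called higher were so in both mutant libraries, and all 3 calls held under median-of-ratios scaling and quantile normalization. The call of hnrnpr ended without the mean-variance trend (limma adjusted p = 0.0820).

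Of the falls, the poly(C)-binding gene hnrnpk had 104 and 113 TPM in the mutants against 156 and 149.7 TPM in the siblings (-0.49, SE 0.10, limma adjusted p = 0.0176). The gene hnrnpul1 had 26.4 and 28.9 TPM in the mutants against 37.7 and 40.2 TPM in the siblings (-0.48, SE 0.12, limma adjusted p = 0.0348). The most abundant member of all, hnrnpabb, had 875 and 973 TPM in the mutants against 1193 and 1176 TPM in the siblings (-0.36, SE 0.08, limma adjusted p = 0.0250). No library of one group overlapped the other for these genes. Under median-of-ratios scaling hnrnpul1 and hnrnpabb lost their calls, under quantile normalization hnrnpk and hnrnpul1 did, and hnrnpabb also lost it without sibling replicate 1.

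Several uncalled hnRNP genes lay near the threshold. The nuclear scaffold gene hnrnpub had 109 and 112 TPM in the mutants against 88.1 and 89.4 TPM in the siblings (0.31, SE 0.09, limma adjusted p = 0.0536), and passed under both alternative scalings. The gene hnrnph1 had 3.62 and 3.97 TPM in the mutants against 7.15 and 5.88 TPM in the siblings (-0.64, SE 0.19, limma adjusted p = 0.0507). It was called lower with a pseudocount of 0.1 or 0.5 TPM and without the mean-variance trend. For hnrnph1l the values were 98.7 and 98.2 TPM in the mutants against 87.6 and 91.6 TPM in the siblings (0.14, SE 0.10). The uncalled gene with the largest difference, hnrnpa3, rested on few reads, at 1.43 and 2.18 TPM in the mutants against 0.164 and 0.780 TPM in the siblings (0.95, SE 0.30, limma adjusted p = 0.0623). Its difference was 1.96 with a pseudocount of 0.1 TPM and 2.25 under voom, both uncalled, and 1.26 without sibling replicate 2, where it was called (limma adjusted p = 0.00282). The abundant gene hnrnpa0l had 376 and 441 TPM in the mutants against 499 and 478 TPM in the siblings (-0.26, SE 0.10). Its abundant relative hnrnpaba had 356 and 421 TPM against 452 and 438 TPM (-0.20, SE 0.10). Neither was called, although both mutant libraries lay below both siblings for each. Without mutant replicate 1 the differences were -0.15 for hnrnpa0l and -0.08 for hnrnpaba.

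Zebrafish retain a and b copies of many of these genes, and 12 such pairs had rows for both copies. In the SRSF5 pair both copies rose, and in 7 pairs only 1 copy was called: the a copy for hnrnpa0 and hnrnpa1, and the b copy for hnrnpab, prpf4b, srsf10, srsf6 and srsf7. The remaining pairs, hnrnpu, srsf1, srsf2 and srsf3, had no call. Whether the copies of a pair differed in their response was not tested, and how the authors' counting shared reads between near-identical copies is not given in the sources used here. As a share of the pair's TPM, hnrnpa1b held 78.7 and 80.1% in the mutants against 87.1 and 85.2% in the siblings. The minor copy srsf5b held 7.17 and 7.59% of its pair in the mutants and 5.18 and 4.73% in the siblings, and srsf7b held 2.63 and 3.45% against 8.76 and 18.3%. Over the 12 pairs the share of the b copy did not overlap between the groups in 9, higher in both mutants for 1 and lower for 8. The same count over all a and b pairs of the series was not made, and the TPM of 70.0% of all genes tested did not overlap. Whether these pairs stand out from other pairs was therefore not tested. The overlapping shares were those of hnrnpu, srsf2 and srsf1, with srsf1b at 38.3 and 36.5% in the mutants against 39.7 and 36.4% in the siblings.

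**Figure D3:**
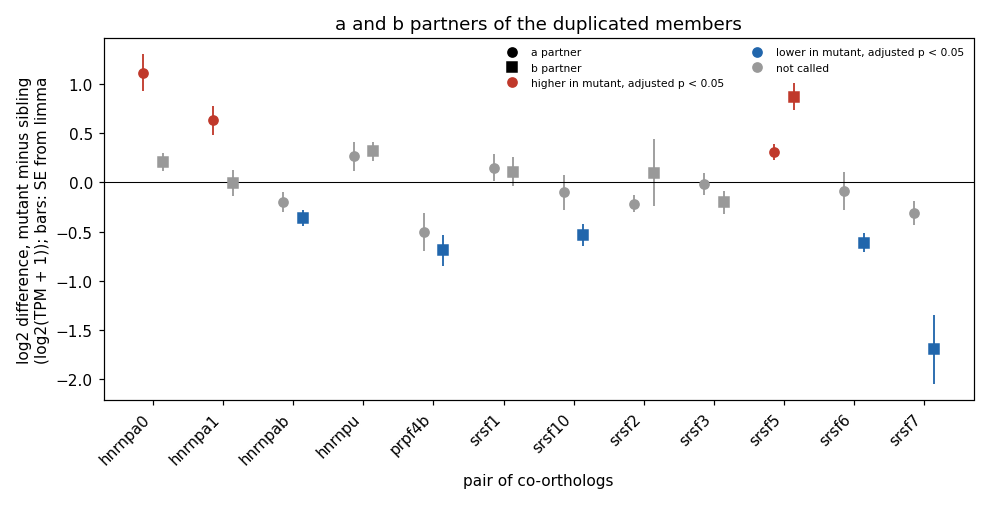
Log2 difference (mutant minus sibling, on log2(TPM + 1)) of the a copy (circle) and b copy (square) of the 12 duplicated members, with the SE from limma (n = 2 libraries per group). Red, blue and grey mark copies called higher, called lower and not called; the SRSF5 copies are both red, and srsf7b lies lowest at -1.70.

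Splicing genes outside the 5 prefixes were taken from a list of 121 genes ordered by role, of which 116 had rows and 106 were tested. Of these, 8 rose and 28 fell (7.55% and 26.4%, against 9.91% and 18.6% of all genes). Their median log2 difference was -0.23, against -0.14 for all genes tested. At a mean of at least 5 TPM, 8 of 97 rose and 32 fell, against 10.6% and 29.9% of all genes of that level. The median at that level was -0.23 for these genes and -0.23 for all genes. Under median-of-ratios scaling 10 rose and 20 fell, and under quantile normalization 9 rose and 15 fell. The clearest fall was that of clk4a, whose product belongs to the CLK kinases that phosphorylate SR proteins: it had 191 and 178 TPM in the mutants against 372 and 404 TPM in the siblings (-1.07, SE 0.09, limma adjusted p = 0.00344). The SR-related splicing activator gene tra2b had 28.3 and 29.8 TPM in the mutants against 55.1 and 54.2 TPM in the siblings (-0.89, SE 0.11, limma adjusted p = 0.00703). In that role, SR-related proteins and their kinases, 7 of 15 fell and 1 rose. For rbmx, an hnRNP-like gene, the values were 74.5 and 68.9 TPM in the mutants against 125 and 142 TPM in the siblings (-0.88, SE 0.11, limma adjusted p = 0.00712).

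Beside the role counts that follow, 18.6% of all genes tested fell and 9.91% rose. At a mean of at least 5 TPM 29.9% of all genes fell and 10.6% rose. Whether any role differed from all genes was not tested. At the 3′ splice site 4 of 9 genes fell and 1 rose. The branch point binding gene sf1 had 124 and 120.1 TPM in the mutants against 189 TPM in both siblings (-0.63, SE 0.09, limma adjusted p = 0.00828). The rise was that of u2af1, whose product reads the AG at the end of the intron and which had 28.1 and 34.2 TPM in the mutants against 16.6 and 19.5 TPM in the siblings (0.75, SE 0.16, limma adjusted p = 0.0212). Of 14 genes of the complex around PRP19 and its partners 6 fell and 0 rose, and of 8 helicase genes 3 fell and 0 rose. None of 6 LSm genes of the U6 snRNP was called by limma. Of these 2 had an unadjusted limma p under 0.05, against 43.4% of all genes tested. Of 25 other hnRNP-like genes 6 rose and 2 fell. Among the rises, ewsr1b had 152 and 139 TPM in the mutants against 81.6 and 91.5 TPM in the siblings (0.75, SE 0.11, limma adjusted p = 0.00912), cirbpb had 716 and 790 TPM against 529.8 and 551 TPM (0.48, SE 0.08, limma adjusted p = 0.0135), and syncrip had 162 and 163 TPM against 126 and 117 TPM (0.42, SE 0.09, limma adjusted p = 0.0239). Of these other splicing genes none was called by limma without mutant replicate 1 or without mutant replicate 2. Their median log2 difference was then -0.19 and -0.32, against -0.13 and -0.15 for all genes tested.

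**Figure D4:**
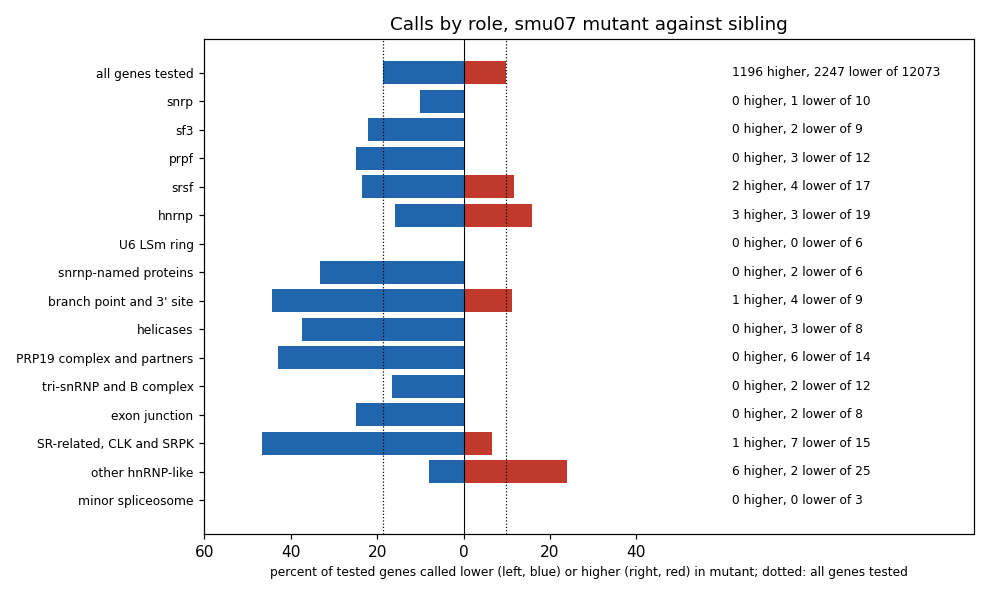
Percent of tested genes called lower (blue, left) or higher (red, right) in the mutant libraries, for all genes tested, the 5 prefixes and 10 further roles in splicing; dotted lines mark 18.6% and 9.91%, the shares over all genes tested. SR-related genes and their kinases reach 7 lower of 15, while the other hnRNP-like genes have 6 higher of 25.

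The remaining 5 members did not pass the filter on low values. Of these, hnrnpc lay between 0.741 and 1.201 TPM and hnrnph3 between 0.208 and 0.442 TPM in all libraries. The U4/U6 gene prpf4 stayed below 0.03 TPM, and the Sm genes snrpd2 and snrpd3 were listed at 0 in all libraries but sibling replicate 1, where they read 0.0387 and 0.0451 TPM. Sm ring subunits are used by every cell, so these entries are given as listed values only. Among the tested members the recovered reads per library ran from 3 for hnrnpa3 to 36028 for hnrnpabb, with a median of 2513. Of the 49 members that were not called, 46 had a 95% interval within 1 log2 unit of 0 on either side, and 35 within a 1.5-fold change.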

How the data were processed

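The authors deposited 1 table of TPM values with a column for each library. The submitters' processing notes list STAR, featureCounts, FastQC and DESeq2 and the GRCz11 build. For versions, annotation release and strand setting nothing is stated in the sources used here. Because TPM fixes each library's total, a shift in a few highly expressed genes moves the values of the rest. Symbols were looked up in the RefSeq annotation of GRCz12tu, which held all 72 members.

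Genes averaging at least 1 TPM were tested with limma 3.58.1 in R 4.3.3 on a log2 scale with a pseudocount of 1 TPM (mean-variance trend, mutant against sibling, adjustment over all genes tested). Fold changes on this scale understate the change of low genes. The method was tested on simulated data, but only the outcome for the recovery of reads is given here. Whole reads were recovered from TPM ratios to a tolerance of 0.0001 in 23927 of 23927 rows above 0 in at least 2 libraries, and exactly in 94.6% of 23051 simulated rows. They count amplified cDNA, not independent molecules.

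Named genes were, per prefix, the 3 most abundant, up to 4 called per direction with the smallest p and the uncalled gene with the largest difference, plus sf3b1, prpf8, duplicated srsf genes and up to 4 other splicing genes called per direction. Further members were chosen after their values were seen. Of the tested members, 1 is counted throughout but not reported here by itself. Members and lists were chosen with earlier results of these data known.

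The alternatives were 2 pseudocounts, 2 filters, 2 scalings, no trend, a replicate block, each library left out, and voom on recovered reads; the voom fit was chosen after seeing the data.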

Additional observations from a re-analysis of the deposited data

How the results depend on the processing

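With 2 libraries per group, leaving out 1 library decided the calls: over all genes the count ran from 3 to 4973 (3443 with all libraries), over the members from 0 to 23 (18), over sf3 genes from 0 to 3 (2), srsf 0 to 6 (6), prpf 0 to 5 (3), snrp 0 to 1 (1), hnrnp 0 to 8 (6) and other splicing genes 0 to 45 (36). The lowest counts came without mutant replicate 1 or 2. With no filter on low values the calls were 9 members (sf3 1, srsf 3, prpf 1, snrp 0) and 21 other splicing genes, and without the trend 7 members (sf3 0, srsf 3, prpf 1, snrp 0, hnrnp 3) and 22 others. Over all genes 2445 of 26105 were called with no filter and 2570 of 12073 without the trend. Quantile normalization gave sf3 1, prpf 0 and snrp 0, median-of-ratios scaling snrp 0, and testing only genes of at least 5 TPM snrp 2. Beside these counts of 0, limma gave an unadjusted p under 0.05 to 3 sf3 genes without the trend, to 3 prpf genes under quantile normalization, and to 3, 1, 0 and 1 snrp genes with no filter, without the trend, under quantile normalization and under median-of-ratios scaling. Over all genes limma gave such a p to 8525 of 26105 with no filter and to 4980 of 12073 without the trend. The same count was 4700 under quantile normalization and 4954 under median-of-ratios scaling. The cause of these changes in the counts was not tested.

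The labels give same-numbered libraries nothing in common but the number. Whether they shared a clutch or sort is not stated, and the correlation of their deviations was -0.046. With the replicate block 13 members were called, all among the 18 (hnrnpa1a, hnrnpr, hnrnpul1, snrpa and srsf5a were lost), with snrp at 0 (4 at an unadjusted p under 0.05) and hnrnp at 3. Over all genes the block called 2663 of 12073, and limma gave 4873 an unadjusted p under 0.05. None of the 18 called members changed sign in the alternatives that tested them (srsf7b was not tested at 5 TPM). Voom on recovered reads called all 18.

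Sign changes touched uncalled genes only: 18 of 67 members under quantile normalization, 9 under median-of-ratios scaling, 6 under voom and 3 to 8 with 1 library left out. Among the named genes, log2 differences under quantile normalization were 0.0012 for hnrnpaba, 0.010 for sf3b5 and srsf10a, 0.0025 for srsf2a, 0.034 for srsf3b, 0.109 for snrpe, 0.220 for srsf3a and 0.037 for srsf6a. Median-of-ratios scaling gave 0.053 for snrpe, 0.078 for srsf3a and 0.0024 for srsf6a, and voom gave 0.028 for snrpe and 0.054 for srsf3a. Leaving out 1 library spread snrpe from -0.138 to 0.043, snrpg from -0.029 to 0.319, srsf10a from -0.210 to 0.0049, srsf2b from -0.415 to 0.607, srsf3a from -0.071 to 0.031 and srsf6a from -0.261 to 0.085.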
